A study of Mus musculus with 14 samples.

Results

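Messenger RNA of subcutaneous mouse gastric tumours labelled TMPC was set against that of subcutaneous tumours labelled TMP. The members are the 3 TMPC and the 3 TMP libraries grown under the skin, chosen by the site and the label in the sample titles, which makes 6 of the 14 samples of the series and 6 of its 12 bulk libraries. The other bulk libraries are 3 of subcutaneous TM and 3 of orthotopic TMPC tumours, and 2 samples are single-cell samples. All 6 tumours were transplants, taken 2 months after transplantation, from which about 1 cm3 of tissue went into each library. The labels call both groups gastric tumours and set them apart only by the letters TMP and TMPC. No label used here spells out the alleles, driver genes, cell or organoid of origin, host strain, sex or age behind these letters. TMP and TMPC are therefore names only, and the extra C is not read as any gene. No label says that the 3 replicates of a group came from separate animals or tumour lines, so each p-value rests on library-to-library spread that could be technical.

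A transplanted tumour is a mixture of tumour cells with host fibroblasts, vessels, immune cells and the fat or muscle that lies around it. Its bulk RNA reads several differences at once, namely the state of the tumour cells, how fast they divide, and how much host tissue the piece holds. Before each division a cell loads the Mcm helicase onto its DNA, opens replication forks and makes nucleotides, and the genes for these steps are switched on together by E2F factors when a cell enters S phase. In bulk tissue fewer cells of a type and less RNA per cell cannot be told apart.

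Total counts lay between 17351152 and 21107310 in the TMPC libraries and between 17543886 and 21044009 in the TMP libraries, and 17122 to 17889 genes had at least 1 count. Of the epithelial list all 16 markers were measured, so the tissue held epithelial RNA in every library, with a summed level of 3853 to 5668 CPM (the usual depth-scaled count, with TMM factors) in TMP and 1426 to 5104 CPM in TMPC tumours. Squamous keratins were measured in every library, with Krt5 at 231 to 1601 CPM. Most markers of differentiated stomach were too low to test: 5 of 14 pit and mucous genes and 6 of 15 chief, parietal and endocrine genes had enough counts. The 5 pit and mucous genes, among them Muc1 and Aqp5, which other epithelia also make, summed to 44.9 to 136 CPM in TMP and 51.2 to 67.6 CPM in TMPC. Pgc, Pga5, Gast, Sst, Gkn2 and Cldn18 had 0 counts in all 6 libraries, where a count of 0 allows up to 0.142 to 0.173 CPM. Of 20 T and NK cell markers 2 could be tested, and Cd3d, Cd3e and Cd8a had at most 3 counts in any library.

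The most alike libraries crossed the labels. Across the 14504 genes tested, the most alike of all 15 pairs of libraries was TMP replicate 1 with TMPC replicate 3, with a correlation of log2 CPM across genes of 0.974. Pairs within TMP had correlations of 0.958 to 0.971, and pairs within TMPC of 0.915 to 0.955. The first principal component, with 38.7% of the variance, set TMPC replicate 1 at 84 against -39.2 to 3.42 for the other 5 libraries. The second, with 25.0%, held TMPC replicates 1 to 3 at -7.55, -62.4 and 1.77 and TMP replicates 1 to 3 at 23.9, 2.43 and 41.8, so every TMPC library lay below every TMP library on it. The gap between the labels on the second component, from TMPC replicate 3 to TMP replicate 2, was small beside the range within either label. The SD of log2(CPM + 1) was larger within TMPC than within TMP for 67.2% of the 11406 genes with a mean of at least 5 CPM, with a median SD of 0.258 against 0.180.

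**Figure D1:**
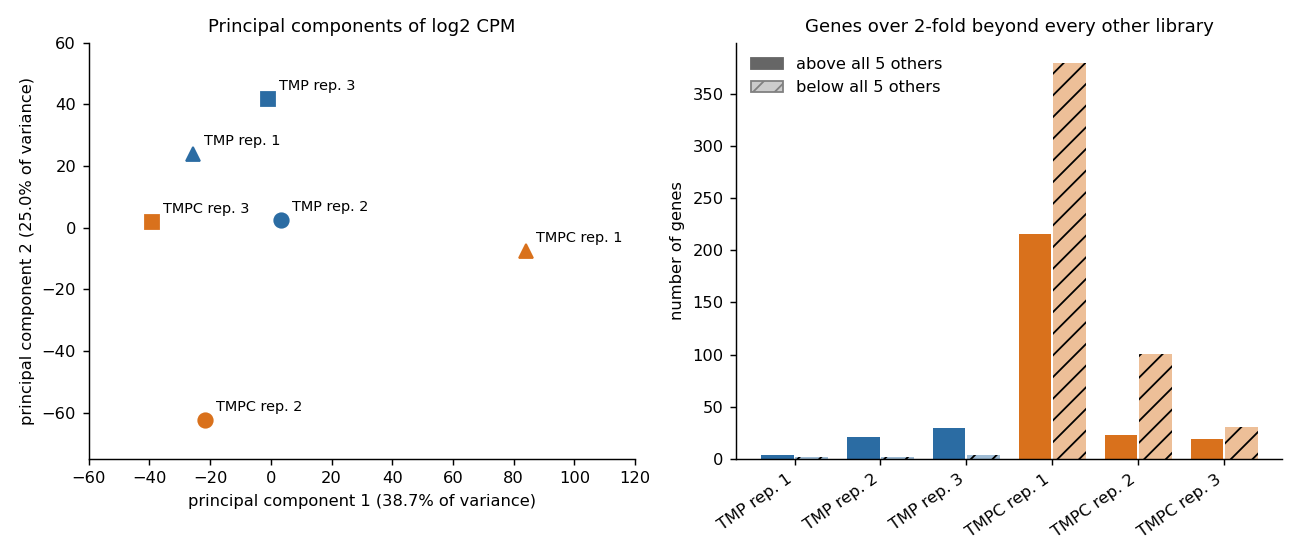
Left, the 6 libraries on the first 2 principal components of log2 CPM over 14504 genes (blue, TMP; orange, TMPC; the symbol gives the replicate). Right, the number of genes, of 11406 with a mean of at least 5 CPM, that stood over 2-fold above or below every other library; TMPC replicate 1 had 216 above and 380 below, and no other library had more than 101.

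TMPC replicate 1 stood apart in named ways. Genes that are transcribed upon MAPK signalling, some of which damp it, were high in this library and in no other. Spry4, a receptor kinase inhibitor, stood at 81.1 CPM against 5.49 to 8.74 CPM, and Etv5, an ETS factor, at 161 CPM against 6.85 to 15.7 CPM. Dusp6, an ERK phosphatase, stood at 235 CPM against 19.4 to 40.8 CPM, and Etv4 at 79.5 CPM against 4.65 to 7.96 CPM. Epithelial genes were low in the same library. Epcam, an epithelial adhesion protein, stood at 113 CPM against 464 to 656 CPM, Esrp1, an epithelial splicing factor, at 29.1 CPM against 201 to 267 CPM, and Krt14, a basal keratin, at 191 CPM against 1286 to 2796 CPM. Fgfr2, a growth factor receptor of epithelia, stood at 23.1 CPM against 153 to 275 CPM, and Fgfr1 at 511 CPM against 55.8 to 149 CPM. This choice of genes was made with their values in view.

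No gene passed the test between the labels. After Benjamini-Hochberg adjustment, edgeR called 0 of 14504 genes (0%) at 0.05, and the lowest adjusted p was 0.833. At an unadjusted p under 0.05, 356 genes (2.45%) were higher and 461 (3.18%) lower in TMPC, which is 5.63% in all. The 3 TMPC values lay above all 3 TMP values for 935 genes (6.45%) and below them for 881 (6.07%). The median log2 fold change (TMPC over TMP) over all genes was 0.01, and 52% of genes lay above 0. The precision was low: the log2 fold change had a median standard error of 0.25 and its 95% confidence interval at the median reached 0.60 to either side. For a single gene, exact permutation of 6 libraries in groups of 3 reaches a two-sided p of 0.1 at best. DESeq2, run on the same 6 libraries, called 43 of 14519 genes (0.296%), 12 higher (0.0827%) and 31 lower (0.214%). Unadjusted p-values below come from edgeR, and none of the genes named passed its adjustment.

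DNA replication genes stood higher in TMPC tumours as a group. All 37 list members had a log2 fold change above 0, with a median of 0.40 against 0.01 over all genes. Of them 23 had an unadjusted p under 0.05, all in the higher direction, where 2.45% of all genes did, and for 25 the 2 groups did not overlap, against 6.45%. The mean over the members of log2(CPM + 1) was 5.94, 5.98 and 5.86 in TMP replicates 1 to 3 and 6.42, 6.35 and 6.19 in TMPC replicates 1 to 3, so every TMPC library stood above every TMP library. The differences were small, with a range of log2 fold changes of 0.15 to 0.95. This list, like the other gene lists, was chosen with earlier results of these data known. Its genes are switched on together and were measured in the same libraries, so the members are not independent.

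By step of the process, the helicase genes came first. Mcm2, a helicase subunit (chromosome 6, 88883474 to 88898780, mm10), stood at 153, 155 and 137 CPM in TMP and at 242, 223 and 169.6 CPM in TMPC libraries, with no overlap (log2 fold change 0.51 ± 0.16, SE, n = 3 per group). Cdc45, which activates the helicase, stood at 36.2, 35.5 and 31.9 against 52.5, 63.4 and 44.9 CPM (0.63 ± 0.17). Mcm7 stood at 206, 194 and 167 against 228, 286 and 235 CPM (0.40 ± 0.15). Mcm5 overlapped, since TMPC replicate 3 stood at 113 CPM, below all 3 TMP libraries at 117, 116 and 117 CPM, while the other TMPC libraries stood at 177 and 196 CPM. Loading factors were less uniform: Cdc6, which loads the helicase, stood at 17.4 to 26.7 CPM in TMP and at 51.8, 31.7 and 23.8 CPM in TMPC libraries.

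Polymerase, fork and nucleotide synthesis genes followed. Prim1, a primase subunit (chromosome 10, 128015168 to 128030037), stood at 49.6, 48 and 41.8 CPM in TMP and at 66.9, 76.9 and 66.1 CPM in TMPC libraries (log2 fold change 0.59 ± 0.14, with the smallest unadjusted p of the list). Pola1, the catalytic subunit of the polymerase that primase works with, stood at 59.7, 62.8 and 59.1 against 114, 91.1 and 75.4 CPM. Rfc3, a clamp loader subunit, stood at 33.4, 35 and 30.3 against 49, 46.6 and 44.1 CPM, and Fen1, a flap nuclease, at 59.4 to 70.3 against 81.7 to 95.1 CPM. Pcna, the sliding clamp, differed less, from 241 to 262 CPM in TMP and 294 to 353 CPM in TMPC. The highest fold change belonged to Rrm2, the regulated subunit of ribonucleotide reductase (chromosome 12, 24708241 to 24714146), on a chromosome whose genes at the median stood higher in TMPC replicates 2 and 3. It stood at 94.2, 97.1 and 123 CPM in TMP and at 142, 249 and 215 CPM in TMPC libraries (0.95 ± 0.23). At the other end, Chaf1b, a histone chaperone, stood at 37.7 to 52.9 CPM in TMP and at 58.7, 30.05 and 65.6 CPM in TMPC libraries.

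The count held in direction when a library was left out and moved in size. Without TMPC replicate 1, 36 of 37 members lay above 0, the median was 0.30 and 12 had an unadjusted p under 0.05 in the higher direction, where 4.03% of all genes did. Without TMP replicate 3 the number was 8 of 37, where 0.889% of all genes did. Over the 6 such fits the median lay between 0.30 and 0.46.

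**Figure D2:**
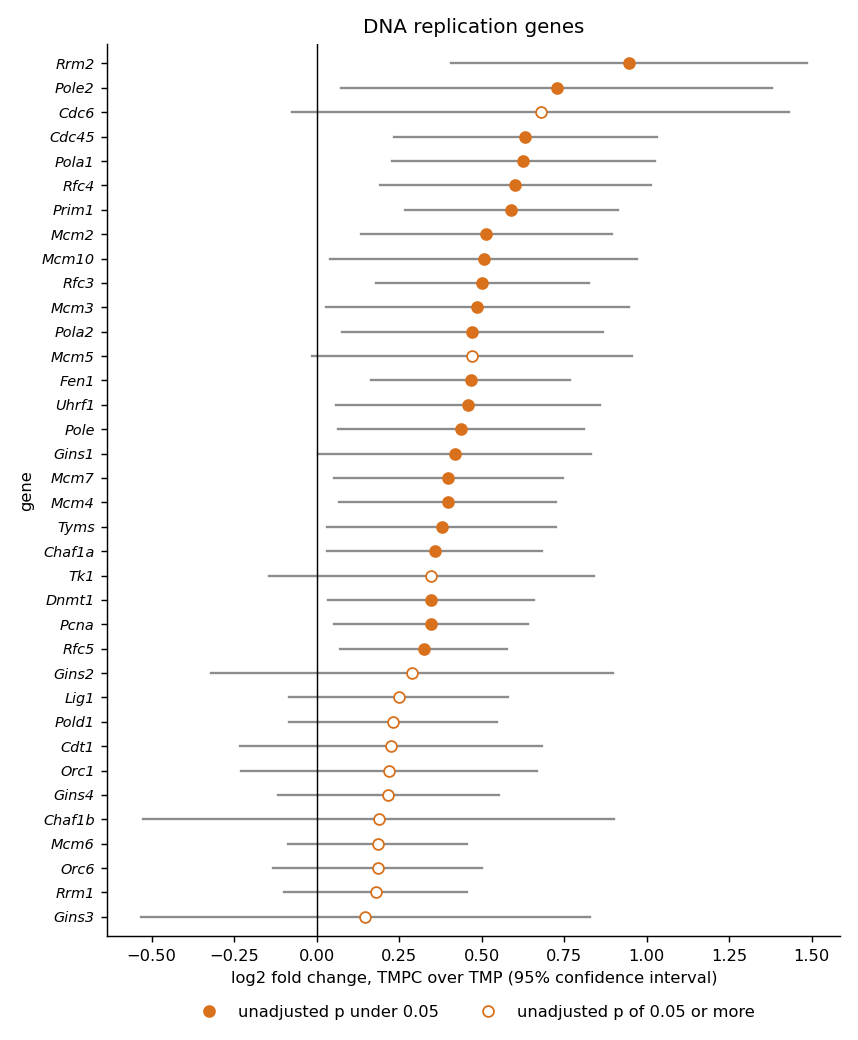
Log2 fold change (TMPC over TMP, x axis) of 36 of the 37 DNA replication genes (y axis) with 95% confidence intervals from edgeR, n = 3 libraries per group; filled points have an unadjusted p under 0.05. All 36 points lie above 0, from 0.15 for Gins3 to 0.95 for Rrm2, and 0 passed the adjustment.

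Promoters of the replication genes, which are known to be switched on by E2F, were searched for E2F words. A high share of such words follows from the choice of the list, so nothing on the labels is read from it. The words were TTTCCCGC, TTTGGCGC, TTTCGCGC and TTTGCCGC on both strands, in windows from 250 bases before to 50 bases after each RefSeq start on GRCm38.p6, and matches to different words may overlap. A RefSeq promoter was given for 31 list members, of which 15 held such a word (48.4%), against 2.6% of 27025 genes and 4.39% of 10903 tested genes. With only the first listed start of each gene they were 12 of 31, against 2.32%. Of 27 mitosis genes 2 did (7.41%). Among the replication genes described above, Prim1, Rrm2, Cdc45, Mcm2, Fen1, Pcna and Chaf1b held none. The 3 with the smallest p among the 15 are shown up to 30 bases after the start, 5′ to 3′ on the strand of the gene, with the E2F words in capitals, to show where the words lie. Pola1 (chrX:93632126-93632405, minus strand) has 1 word that begins 138 bases before the start, Rfc3 (chr5:151651179-151651458, minus strand) has 2 around the start, and Mcm7 (chr5:138171854-138172133, minus strand) has 1 that begins 165 bases before the start and 1 after it. A match is a description of letters and was not tested for binding.
Pola1: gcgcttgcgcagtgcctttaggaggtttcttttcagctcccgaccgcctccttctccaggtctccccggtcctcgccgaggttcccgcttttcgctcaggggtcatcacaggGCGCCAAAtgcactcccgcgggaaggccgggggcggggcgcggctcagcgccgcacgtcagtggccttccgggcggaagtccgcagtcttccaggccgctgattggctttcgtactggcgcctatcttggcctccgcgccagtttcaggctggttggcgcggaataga
Rfc3: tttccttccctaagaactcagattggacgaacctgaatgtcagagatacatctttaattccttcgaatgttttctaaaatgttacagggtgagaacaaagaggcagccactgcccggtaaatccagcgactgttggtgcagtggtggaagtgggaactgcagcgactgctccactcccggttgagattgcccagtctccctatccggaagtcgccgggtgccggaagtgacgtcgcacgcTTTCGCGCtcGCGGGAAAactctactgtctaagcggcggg
Mcm7: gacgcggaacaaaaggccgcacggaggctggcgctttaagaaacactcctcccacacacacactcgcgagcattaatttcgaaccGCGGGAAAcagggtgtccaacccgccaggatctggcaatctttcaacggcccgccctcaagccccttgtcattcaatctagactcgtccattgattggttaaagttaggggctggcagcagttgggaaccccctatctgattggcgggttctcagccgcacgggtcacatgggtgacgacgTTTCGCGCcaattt

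Genes of mitosis differed in the same direction by less. All 32 lay above 0, with a median log2 fold change of 0.33. At an unadjusted p under 0.05 were 11, where 2.45% of all genes were higher, and 14 did not overlap, against 6.45%. Top2a, the topoisomerase that untangles chromosomes (chromosome 11, 98992943 to 99024189), stood at 488, 449 and 436 CPM in TMP and at 644, 699.8 and 573 CPM in TMPC libraries (0.48 ± 0.14). Kif11, the motor that pushes spindle poles apart, stood at 152 to 197 against 223 to 282 CPM, and Incenp, a scaffold of the chromosomal passenger complex, at 94.7 to 115 against 135 to 149.5 CPM. Smc2, a condensin subunit, stood at 118 to 136 against 162 to 180.1 CPM. Mki67, a standard marker of dividing cells, overlapped, at 386 to 512 CPM in TMP and 470.5 to 518 CPM in TMPC (0.12 ± 0.15), and so did Anln, a cytokinesis gene, at 99.6 to 143 and 96.7 to 149 CPM. Over the 6 fits that each leave out 1 library, the number under 0.05 ran from 4 of 32 without TMP replicate 2, where 1.5% of all genes were, to 14 without TMPC replicate 3, where 4.17% were. DESeq2 called 2 kinetochore genes outside the list, Ndc80 at 28.1 to 30.5 against 41.7 to 46.7 CPM and Spc24 at 21 to 25.5 against 35.2 to 41.6 CPM, and the recombination gene Rad51ap1 at 22.7 to 24.3 against 34.2 to 39.7 CPM.

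Ribosome and respiration genes are also tied to growth. A list of 26 genes held ribosome biogenesis genes, a known Myc programme, with Myc, Mycn and other Myc targets such as Odc1 and Ldha. Of these 26 genes 24 lay above 0 with a median of 0.18. Of 26 oxidative phosphorylation genes 23 lay above 0, with a median of 0.18. In both lists 0 genes had an unadjusted p under 0.05 by edgeR, and DESeq2 called 0. Single libraries moved both. Without TMP replicate 1 the ribosome and Myc target list had 26 of 26 above 0 and a median of 0.35. It had 8 genes under 0.05, where 2.35% of all genes were higher. Without TMPC replicate 1 it had 2, where 4.03% were. The oxidative phosphorylation list had 4 higher under 0.05 without TMPC replicate 1, where 4.03% of all genes were, and its median ran from 0.09 to 0.26. Glycolysis and hypoxia genes were split, with 11 of 22 above 0 and 1 lower at an unadjusted p under 0.05, where 3.18% of all genes were. That split rested on single libraries, since 20 of 22 lay above 0 without TMP replicate 1, 20 without TMPC replicate 1, and 8 without TMPC replicate 3 or without TMP replicate 2. Of p53 targets 11 of 25 lay above 0, and none was under 0.05 by edgeR or called by DESeq2. With 1 library left out, at most 2 were higher under 0.05, without TMPC replicate 1, where 4.03% of all genes were. At most 2 were lower, without TMPC replicate 3, where 5.8% were.

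Matrix proteases and their inhibitors stood lower in TMPC tumours. Of 23 tested 22 lay below 0, with a median log2 fold change of -0.55. Of them 5 had an unadjusted p under 0.05, where 3.18% of all genes did, and 6 did not overlap, against 6.07%. Adamts1, a protease that cuts proteoglycans (chromosome 16, 85793827 to 85803113), stood at 58.3, 45.8 and 49.4 CPM in TMP and at 26.5, 27 and 31.3 CPM in TMPC libraries (-0.85 ± 0.16). Mmp3, or stromelysin 1 (chromosome 9, 7445822 to 7455975), stood at 88, 61.6 and 243 against 19.6, 33.5 and 42 CPM (-2.05 ± 0.55). Mmp2, a gelatinase of stromal cells, stood at 204 to 276 against 138 to 179.8 CPM, and Mmp15, a membrane protease, at 103 to 172 against 70.4 to 92.7 CPM. Mmp11 stood at 14.3 to 30.6 against 8.16 to 13.1 CPM. Mmp14 was the member above 0, at 199 to 324 and 264 to 285 CPM. Mmp13, a collagenase, was low in 2 TMPC libraries only, at 54.9 and 95.3 CPM, with replicate 3 at 295 CPM among the TMP values of 252 to 302 CPM. Leaving out any 1 library kept the median between -0.65 and -0.50. Adamts2, which trims procollagen and is not in the list, was called by DESeq2, at 62.5 to 101 against 33.1 to 46.4 CPM.

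Several of these proteases are known to be switched on by AP-1, so a raised share of its word is partly built into the list. The part of AP-1 in these values was not tested. The AP-1 word TGAGTCA, on both strands, lay in the same window of 6 of 16 protease and inhibitor genes with a promoter in the table (37.5%), namely Mmp3, Mmp7, Mmp10, Mmp12, Mmp13 and Plaur, against 5.95% of 27025 genes and 5% of tested genes. Adamts1, Mmp11, Mmp14 and Mmp15, described above, held none, and Mmp7 was too low to test. The Mmp3 promoter (chr9:7445572-7445851, plus strand, GRCm38.p6, RefSeq) is shown with the word, 46 bases before the start, in capitals.
Mmp3: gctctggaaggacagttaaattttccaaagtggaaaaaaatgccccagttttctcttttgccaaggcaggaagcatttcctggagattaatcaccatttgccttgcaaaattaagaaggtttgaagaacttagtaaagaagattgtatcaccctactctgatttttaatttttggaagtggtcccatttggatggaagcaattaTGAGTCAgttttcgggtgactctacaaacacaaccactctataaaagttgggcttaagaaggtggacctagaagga

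Immediate early genes, which cells transcribe within minutes of a stimulus, stood lower for 15 of 20 members, with a median of -0.44. Of them 6 were lower at an unadjusted p under 0.05, where 3.18% of all genes were. Junb, an AP-1 subunit, stood at 193, 186 and 231 CPM in TMP and at 124, 139.6 and 161 CPM in TMPC libraries (-0.53 ± 0.15). Zfp36, which speeds the decay of cytokine messages (chromosome 7, 28376784 to 28380253), stood at 34.6, 43.2 and 47.6 against 26, 25.1 and 29.2 CPM (-0.64 ± 0.17), and Klf2 at 12.6 to 23.4 against 7.51 to 9.89 CPM. Jun, Jund and Dusp1 overlapped between groups, and Fos, at 27.4 to 37.3 against 19.6 to 30.4 CPM, had an unadjusted p above 0.05. Egr3 went the other way through 1 library, with 64.8 CPM in TMPC replicate 1 and 1.36 to 2.92 CPM in the other 5. Without TMP replicate 1 the list median was -0.08, with 15 of 20 members below 0. Of them 3 were lower at an unadjusted p under 0.05, where 3.46% of all genes were. Without TMPC replicate 1 the number was also 3, where 5.03% were. Of 13 heat shock genes Hsp90aa1 stood higher, at 829 to 1153 against 1173 to 1871 CPM, while the small heat shock genes Hspb1, at 67.6 to 117 against 28 to 62 CPM, and Cryab, at 38.3 to 66.6 against 3.15 to 19.95 CPM, stood lower.

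**Figure D3:**
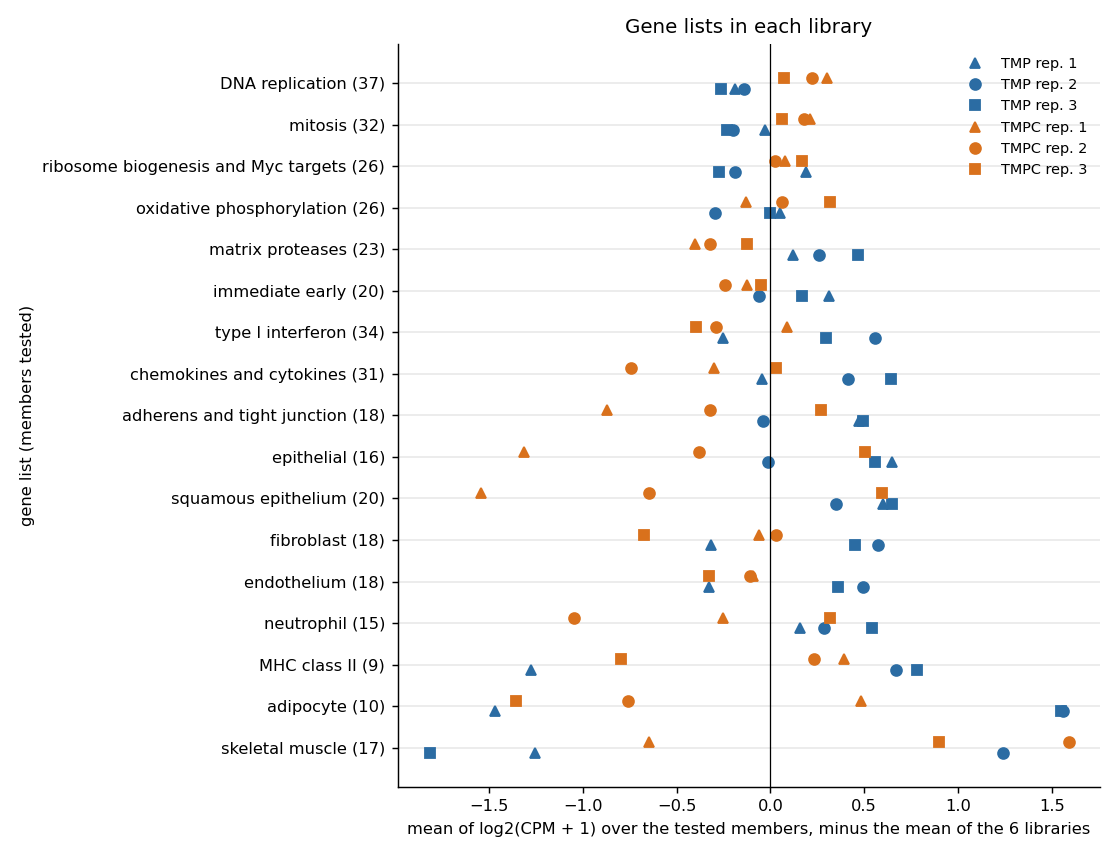
Mean of log2(CPM + 1) over the tested members of 17 gene lists in each library (x axis), minus the mean of the 6 libraries; blue, TMP; orange, TMPC; the symbol gives the replicate. The groups do not overlap for DNA replication, mitosis and matrix proteases, and epithelial and squamous genes are lowest in TMPC replicate 1.

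Genes induced by type I interferon stood lower for 31 of 34 members, with a median of -0.45, and 4 had an unadjusted p under 0.05, where 3.18% of all genes were lower. Ddx58, the RNA sensor RIG-I, stood at 40.6, 46.1 and 43.1 CPM in TMP and at 30.9, 23.8 and 22.5 CPM in TMPC libraries (-0.75 ± 0.17). Mx1, an antiviral GTPase (chromosome 16, 97447035 to 97462907), stood at 5.95, 11 and 9.84 against 3.82, 1.85 and 2.72 CPM, and DESeq2 called it. Oasl2 stood at 36.2 to 41.7 against 19.1 to 33.7 CPM. TMP replicate 1 was low: the summed level of the list was 491 CPM in it, 804 and 671 CPM in the other TMP libraries, and 430.4 to 632 CPM in TMPC. Without TMP replicate 2, 24 of 34 lay below 0 and the median was -0.14. Isg15, a standard member, stood at 13 to 16 and 11.9 to 15.2 CPM. The interferon gamma list held GTPases together with Irf1, Socs1, Cxcl9 and Cxcl10. All 17 genes of it that were tested lay below 0, with a median of -0.23. Of them 0 had an unadjusted p under 0.05 by edgeR or a DESeq2 call. Without TMP replicate 2 the direction turned, with 12 of 17 above 0 and a median of 0.11. Without TMP replicate 1 the median was -0.65.

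The interferon-stimulated response element, known by the name ISRE, was searched on both strands. It lay in the promoter window of 12 of 24 type I interferon genes with a RefSeq promoter (50%), against 3.99% of 27025 genes and 3.75% of tested genes. The list is made of genes known to answer interferon, so this share follows from the choice of the list. That of Ddx58 (chr4:40239796-40240075, minus strand, GRCm38.p6, RefSeq) is shown because Ddx58 had the smallest p of the list, with the element, which begins at base 3 of the transcript, in capitals.
Ddx58: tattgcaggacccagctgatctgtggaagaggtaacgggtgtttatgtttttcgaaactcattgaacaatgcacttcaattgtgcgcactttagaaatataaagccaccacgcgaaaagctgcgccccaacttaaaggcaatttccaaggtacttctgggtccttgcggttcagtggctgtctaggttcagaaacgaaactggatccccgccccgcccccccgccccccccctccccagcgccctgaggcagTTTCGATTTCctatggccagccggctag

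Chemokine and cytokine genes stood lower for 30 of 31 members, with a median of -0.70. Of them 3 had an unadjusted p under 0.05, where 3.18% of all genes were lower, and 4 did not overlap, against 6.07%. The number under 0.05 was 1 without TMP replicate 2 or without TMP replicate 3, where 2.43% and 1.4% of all genes were lower. It was 12 without TMPC replicate 3, where 5.8% were. Il1rn, the decoy ligand of the IL-1 receptor, stood at 36.4, 51.2 and 56.3 CPM in TMP and at 29.3, 33.1 and 29.1 CPM in TMPC libraries. Cx3cl1, a membrane-bound chemokine, stood at 34.7 to 65.4 against 16.4 to 30.9 CPM, and Cxcl12, a stromal chemokine, at 17.2, 37.6 and 50.7 against 19.2, 16.2 and 6.20 CPM. Csf1 lay just above 0 (0.06 ± 0.33). Neutrophil markers lay below 0 for 15 of 15, with a summed level of 332 to 565 CPM in TMP and 61.3 to 287 CPM in TMPC, and macrophage markers for 16 of 21, with 2292 to 3255 and 1806 to 2974 CPM. The direction of the macrophage markers rested on single libraries: 9 of 21 lay below 0 without TMP replicate 2, with a median of 0.12, 11 without TMPC replicate 2 or 3, and 21 without TMPC replicate 1. The neutrophil median ran from -0.36 without TMPC replicate 2 to -1.09 without TMPC replicate 3. The part of these cells in the chemokine values was not tested.

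Stromal genes stood lower with wide spread. Endothelial markers lay below 0 for 18 of 18, with a median of -0.37, but their summed level overlapped, at 285 to 549.8 CPM in TMP and 303 to 376 CPM in TMPC, and without TMP replicate 2 the median was -0.17. Erg, a transcription factor of vessels, stood at 10.1 to 14.5 against 5.17 to 9.82 CPM, and Vwf at 11.8 to 21.5 against 3.09 to 11.5 CPM. Fibroblast markers lay below 0 for 14 of 18, with a median of -0.57, and of -0.29 without TMP replicate 2. Dcn, the proteoglycan decorin (chromosome 10, 97479609 to 97518143), stood at 108, 133 and 129 CPM in TMP and at 51.5, 64.9 and 24.1 CPM in TMPC libraries (-1.40 ± 0.34). Col1a1, the main collagen chain, stood at 1447, 2850.4 and 2446 against 1209, 1602 and 1188 CPM, and Col5a2 at 614 to 849 against 373 to 543 CPM. Genes that act on or answer TGF-beta and mechanical load were lower beside them: Ltbp2 stood at 51.3 to 72.3 against 27.5 to 40.5 CPM, Tgfbr1, a TGF-beta receptor, at 91.6 to 115 against 73.8 to 90.8 CPM, and the Yap targets Cyr61 at 118 to 207 against 56.2 to 96.3 CPM and Amotl2 at 49.8 to 70.8 against 23.5 to 39.96 CPM. Of the Yap list, however, 9 of 15 members lay below 0, and 13 of 15 without TMPC replicate 1. Without TMP replicate 1 or without TMPC replicate 2 the number was 8, with medians of -0.05 and -0.04. Of the TGF-beta and BMP list 14 of 22 lay below 0. The summed fibroblast level was 5091, 10767 and 8844 CPM in TMP and 5049, 6686 and 4602 CPM in TMPC libraries, and its part in these values was not tested.

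Other host tissue differed widely between libraries of the same label. Skeletal muscle markers summed to 334 CPM in TMP replicate 2, 428 CPM in TMPC replicate 2 and 325 CPM in TMPC replicate 3, against 21.5 to 70.1 CPM in the other 3 libraries. All 17 lay above 0 and 1 had an unadjusted p under 0.05, where 2.45% of all genes were higher. This was Tnnt1, at 0.650 to 1.23 against 2.82 to 3.70 CPM. Their median log2 fold change was 0.94, and 0.25 to 3.91 with 1 library left out. Adipocyte markers summed to 296 and 299 CPM in TMP replicates 2 and 3 and 136 CPM in TMPC replicate 1, against 31.6 to 46.6 CPM in the other 3. All 10 tested lay below 0, also with any 1 library left out. Their median log2 fold change was -2.05, and -3.56 to -1.48 with 1 library left out. With all 6 libraries 0 of them had an unadjusted p under 0.05. Of 9 MHC class II genes 8 lay below 0, with a median of -0.47, and of -0.94 to 0.22 with 1 library left out. They summed to 233 CPM in TMP replicate 1 and 321 CPM in TMPC replicate 3, against 489 to 1006 CPM elsewhere. Cd74, the invariant chain, stood at 15 and 25.3 CPM in those 2 libraries and at 101 to 264 CPM in the others.

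Epithelial adhesion genes stood lower in TMPC, with the lowest values in replicate 1. Of 18 adherens and tight junction genes 18 lay below 0, with a median of -0.38. Of them 2 had an unadjusted p under 0.05, where 3.18% of all genes were lower, and 5 did not overlap, against 6.07%. Cdh1, the E-cadherin gene (chromosome 8, 106603351 to 106670246), stood at 493, 405 and 507 CPM in TMP and at 105, 294 and 369 CPM in TMPC libraries (-0.87 ± 0.42). Its unadjusted p was above 0.05, every TMPC value lay below every TMP value, and the confidence interval of the log2 fold change ran from -1.86 to 0.12. Cldn3, a claudin, stood at 52.3 to 93.1 against 12.3 to 46.1 CPM, and Ctnnd1, a catenin that holds cadherins at the membrane, at 386 to 451 against 263 to 359 CPM. Without TMPC replicate 1, 13 of 18 lay below 0 and the median was -0.24. Without TMPC replicate 3 the median was -0.96 and 9 of 18 had an unadjusted p under 0.05, where 5.8% of all genes were lower, while without TMP replicate 1, TMP replicate 3 or TMPC replicate 2 the number was 0. The log2 fold change of Cdh1 without TMPC replicate 1 was -0.51. Simple epithelial markers lay below 0 for 15 of 16 (median -0.62), and for 11 of 16 (median -0.33) without TMPC replicate 1, and without TMPC replicate 3 the median was -1.03.

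The squamous epithelial values also depended on single TMPC libraries. Of 20 tested, 17 lay below 0 with a median of -0.77, and without TMPC replicate 1 they were 14 of 20 with a median of -0.38. Without TMPC replicate 3 the median was -1.61, and 11 of 20 were lower at an unadjusted p under 0.05, where 5.8% of all genes were. With all 6 libraries the number was 2, where 3.18% were. The summed level was 6873 to 8555 CPM in TMP and 1409.8, 4891 and 11995 CPM in TMPC replicates 1 to 3, so TMPC held both the lowest and the highest library. The cornified envelope gene Sprr3 stood at 6.31, 9.17 and 24 against 1.85, 0.317 and 2.62 CPM (-3.04 ± 0.83), and Sprr1a at 91.4, 48.6 and 121 against 28.3, 26.4 and 53.3 CPM. Krt4 and Krt16, keratins of upper and activated layers, stood at 139 to 223 against 6.87 to 135 CPM and at 232 to 266 against 16.4 to 185 CPM. Krt14 of the basal layer overlapped, with 1425 to 1657 CPM in TMP and 191 to 2796 CPM in TMPC.

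Genes of the HoxC cluster, transcription factors that mark position along the body, stood lower in TMPC. This list was chosen after the values were seen. The 5 genes of the cluster with enough counts, Hoxc4, Hoxc5, Hoxc6, Hoxc8 and Hoxc9, all lay below 0 with a median of -2.03. All had an unadjusted p under 0.05, where 3.18% of all genes were lower. None overlapped, where 6.07% of all genes were lower without overlap. As the list was chosen by its values, nothing is read from these counts. Hoxc8 (chromosome 15, 102990607 to 102994111) stood at 6.19, 6.97 and 11.7 CPM in TMP and at 1.57, 0.687 and 2.07 CPM in TMPC libraries (-2.52 ± 0.51), and DESeq2 called it. Hoxc4 stood at 7.01, 3.70 and 14 against 2.81, 0.898 and 2.32 CPM, and Hoxc6 at 2.36, 4.61 and 5.99 against 1.63, 1.11 and 1.56 CPM. Hoxc10 to Hoxc13 fell under the filter on low counts, with at most 2 counts in any TMPC library and up to 56 in TMP replicate 3. Without TMP replicate 3, 2 of the 5 had an unadjusted p under 0.05, where 1.4% of all genes were lower, and the median was -1.68. Of 16 tested genes of the HoxA, HoxB and HoxD clusters 10 lay below 0, 0 had an unadjusted p under 0.05 by edgeR and 0 were called by DESeq2. Without TMPC replicate 1, however, 15 of the 16 lay below 0, the median was -0.63 and 4 were lower at an unadjusted p under 0.05, where 5.03% of all genes were. Neighbouring Hox genes share a domain and overlapping transcripts, so these 5 values are not independent.

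DESeq2 called the genes of this and the next paragraph. Myadm, a membrane protein gene (chromosome 7, 3289080 to 3300442), had the smallest edgeR p of all genes and stood at 183, 186 and 172 CPM in TMP and at 114, 89.4 and 110.5 CPM in TMPC libraries. Tbx18, a factor of mesenchyme and mesothelium (chromosome 9, 87702800 to 87731260), stood at 24.9, 14 and 18.6 against 5.90, 6.50 and 3.88 CPM (-1.82 ± 0.32). Rhpn2 stood at 20.4 to 25.8 against 8.43 to 11.7 CPM. Bhlhe22 stood at 19 to 38.3 against 2.36 to 8.40 CPM, and Apod, the lipid carrier apolipoprotein D, at 7.37 to 15.8 against 1.51 to 3.54 CPM. Hp, the haemoglobin scavenger haptoglobin, stood at 144 to 263 against 21.6 to 69.3 CPM. L1td1 stood at 2.12, 8.52 and 9.15 against 0.0562, 0.264 and 0.957 CPM.

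Among the genes called higher, Dusp9, a MAPK phosphatase (chromosome X, 73639419 to 73643514), stood at 17, 13 and 11.7 CPM in TMP and at 33.5, 24.2 and 29.8 CPM in TMPC libraries (1.07 ± 0.22). Nnt, the mitochondrial transhydrogenase, stood at 20.8, 34.2 and 21.3 against 65.8, 65.3 and 44.9 CPM, and Asap2 at 25.3 to 26.5 against 36.9 to 60.9 CPM.

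**Figure D4:**
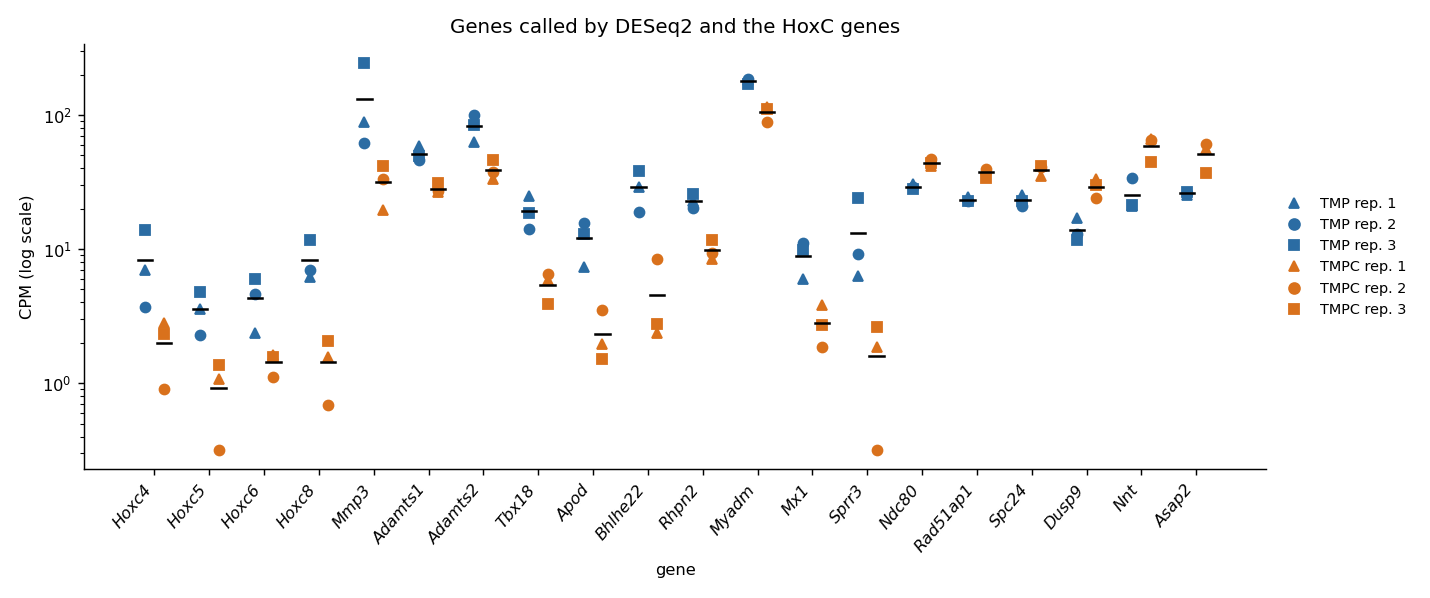
CPM (log scale) of 4 HoxC genes and of a selection of the genes called by DESeq2 in each library; blue, TMP; orange, TMPC; the symbol gives the replicate and the bar the group mean (n = 3). The groups do not overlap for any gene shown.

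Cancer driver genes were looked at by name because the group labels name none. Of 38 drivers 16 lay above and 22 below 0, with a median of -0.04, and 0 had an unadjusted p under 0.05 by edgeR or a DESeq2 call. For 4 the groups did not overlap, namely Ccne1, which was higher, where 6.45% of all genes were, and Cdh1, Ctnnb1 and Nras, which were lower, where 6.07% were, and nothing is read from this count. Without TMPC replicate 1, 1 driver was higher and 3 were lower at an unadjusted p under 0.05, where 4.03% and 5.03% of all genes were. Trp53 (chromosome 11, 69580359 to 69591873) stood at 98.8, 89.5 and 95.8 CPM in TMP and at 79.8, 133 and 114 CPM in TMPC libraries (0.20 ± 0.19, interval -0.26 to 0.66). Myc (chromosome 15, 61985391 to 61990374) stood at 1345, 561 and 468 against 839, 774 and 883 CPM, so that TMP replicate 1 held the highest value and the other TMP libraries the lowest. The confidence interval of its log2 fold change ran from -0.85 to 1.00. Cdkn2a, the gene of the Ink4a and Arf inhibitors, stood at 328, 365 and 271 against 549, 237 and 223 CPM.

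Ctnnb1, or beta-catenin, stood at 1384, 1549 and 1354 CPM in TMP and at 1121, 1323 and 1208 CPM in TMPC libraries (-0.23 ± 0.15), below in each. Apc, which marks beta-catenin for decay, stood at 124 to 152 against 127 to 178 CPM, and Ctnna1, which ties it to actin, at 413 to 441 against 320.5 to 437 CPM. Smad4 stood at 115 to 137 against 130.5 to 148 CPM and Arid1a, a chromatin remodeller, at 195 to 238 against 214 to 221 CPM. Rhoa stood at 314 to 366 against 275 to 359 CPM and Rb1 at 20.1 to 25.5 against 16.1 to 23.9 CPM. RNA levels need not show a point mutation, and a deleted exon need not lower the count of a gene.

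**Figure D5:**
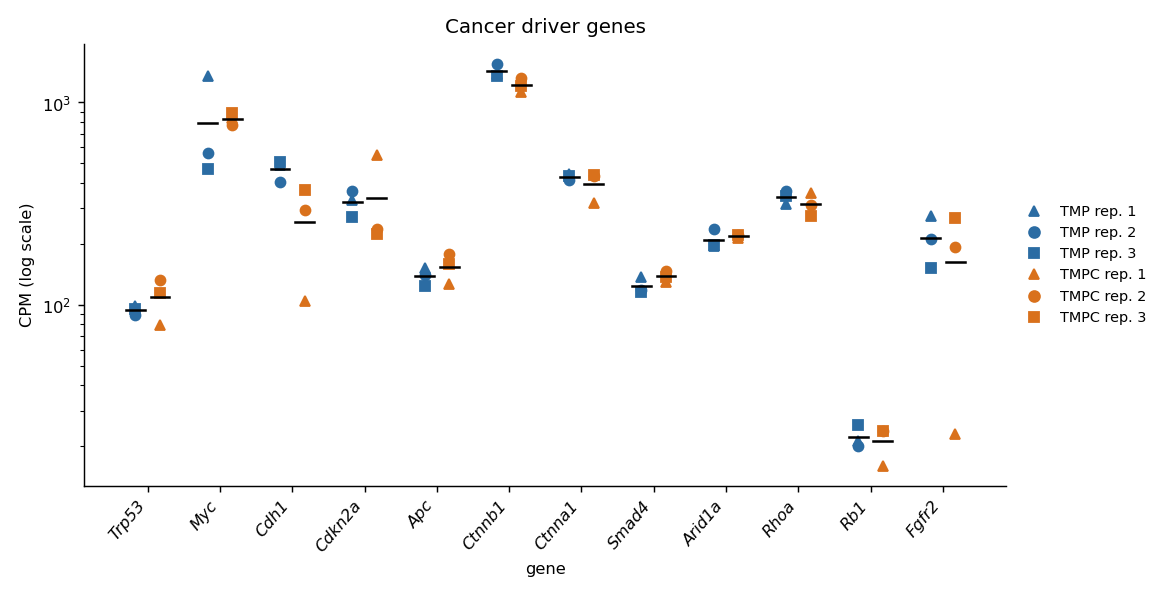
CPM (log scale) of 12 cancer driver genes in each library; blue, TMP; orange, TMPC; the symbol gives the replicate and the bar the group mean (n = 3). Cdh1 and Ctnnb1 show no overlap between groups, Myc is highest in TMP replicate 1 and Fgfr2 is lowest in TMPC replicate 1.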

How the data were processed

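PolyA RNA was read in pairs of 150 bp, as the labels' protocols say. STAR 2.6.0, mm10 and DESeq2 are named, per the submitters' processing notes. The counter, annotation and strand setting are not stated in the labels, so levels of near-identical or antisense gene pairs (Hoxc and Sprr genes among them) are uncertain. The authors deposited whole-number counts per gene, used as deposited. The authors' normalized signal, which is counts over a size factor per the file headers, only served to check gene symbols. Symbols stood out of step in 12131 of 24421 entries, from entry 12291 on, and were taken by position from a second deposited table. Counts then matched the signal within 0.01 reads for all 24417 uniquely named genes, against 14423 before. Of 27 date-like symbols 26 were mended.

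The 6 libraries were fitted by label with edgeR 4.0.16 in R 4.3.3 (TMM, filterByExpr, glmQLFit, glmQLFTest, Benjamini-Hochberg over 14504 genes, threshold 0.05). The fit was tested on simulated data. Within-group library pairs had chi-square values of 31.6 to 125 per degree of freedom and none was a copy. Alternatives were DESeq2 1.42.0, other scalings and filters, added TM libraries, a replicate block, and each library left out. Floors cover counting error only. The members and the 44 lists were chosen with earlier results of these data known, and 3 lists were added after seeing values. Lists are described by counts and medians. Named genes are the 10 largest differences in each direction among genes with unadjusted p under 0.05, no overlap and at least 5 CPM, the 3 smallest p of each list, drivers set by name, DESeq2 calls and members of lists with at least 3 times the background share. Only part of these are printed, and a few others were picked after their values were seen. Promoters came from RefSeq tables. Some genes covered by these rules are not reported here.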

Additional observations from a re-analysis of the deposited data

How the results depend on the processing

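Over 14 other settings, the edgeR fits called 0 genes at an adjusted p under 0.05, and DESeq2 called 43. Of 111 genes named, 88 kept 1 direction in every setting and 20 were called by DESeq2. With the subcutaneous TM libraries in the fit, 210 genes were higher and 255 lower at an unadjusted p under 0.05, and 495 and 649 without TM replicate 2. Without 1 library at a time these counts ran from 131 to 620 and from 207 to 862, adjusted calls from 0 to 0, and genes with no overlap from 2497 to 4139, since fewer samples overlap less often. The cause of the other shifts was not tested. With the replicate block, 195 genes were higher and 470 lower. The replicate numbers do not pair the libraries: same-numbered deviations correlated at -0.25, 0.20 and -0.05, against -0.31 to 0.35 for other pairs. The block turned Csf1 (-0.0055) and Cdkn2a (-0.056). Leaving out 1 library turned the log2 fold change of 23 genes, given as ranges: Anln (-0.17 to 0.23), Aqp5 (-1.22 to 0.66), Cd74 (-1.26 to 0.22), Cdkn2a (-0.49 to 0.30), Chaf1b (-0.017 to 0.47), Csf1 (-0.35 to 0.29), Ctnna1 (-0.18 to 0.0035), Ddx3y (-0.79 to 0.30), Dusp6 (-0.89 to 1.83), Egr3 (-0.038 to 3.93), Epcam (-0.55 to 0.24), Esrp1 (-0.93 to 0.0024), Etv4 (-0.25 to 2.63), Etv5 (-0.49 to 2.66), Fgfr1 (-0.35 to 1.4), Fgfr2 (-0.97 to 0.11), Gins3 (-0.025 to 0.37), Krt14 (-1.08 to 0.36), Mmp14 (-0.029 to 0.34), Myc (-0.20 to 0.70), Rb1 (-0.16 to 0.084), Spry4 (-0.34 to 2.56) and Xist (-2.24 to 2.71). With 1 library left out, the group of 2 shares 1 estimate of the spread with the other group. Medians of 22 of 47 lists moved by more than the spread of libraries in at least 1 setting. Lists of few tested genes gave no median above 5 CPM. The 3 libraries a group limit the precision, and depth limits genes near the floor of 3 counts.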

Other observations

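Genes with unadjusted p under 0.05 were spread unevenly over chromosomes. Of 386 genes on chromosome 12 with a mean of at least 5 CPM, 50 were higher and 3 lower in TMPC by edgeR, where 334 and 324 of 11406 genes were over all chromosomes. The median log2 fold change was 0.32 on chromosome 12 and 0.04 over all. The median deviation of its genes was -0.02, -0.18 and -0.03 in TMP and -0.15, 0.41 and 0.22 in TMPC replicates 1 to 3, so TMPC replicates 2 and 3 were high and TMPC replicate 1 was not. Rrm2, described above, lies on chromosome 12, and in TMPC its lowest value was also in replicate 1. Asap2 lies there too, with its lowest TMPC value in replicate 3. On chromosome X, which holds Pola1 and Dusp9, 27 genes were higher and 3 lower of 339. On chromosome 6, which holds Mcm2, 38 were higher and 9 lower of 538, and on chromosome 7 4 and 37 of 807. Chromosome 10, which holds Prim1, had 23 higher and 8 lower of 525. Chromosome 16, which holds Cdc45, went the other way, with 6 higher and 13 lower of 360. The Y-linked gene Ddx3y stood at 33.7, 85.4 and 94.2 CPM in TMP and 67.1, 14.9 and 108 CPM in TMPC replicates 1 to 3, lowest in TMPC replicate 2, and Xist, the X inactivation RNA, at 0.268 to 1.81 and 0.106 to 13.2 CPM, highest in TMPC replicate 3. Their part in the count on chromosome X was not tested, nor was what sets the other counts.

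On a scale shared with the other bulk libraries, the mean of log2(CPM + 1) over the HoxC genes was 3.05, 2.87 and 3.52 in subcutaneous TM, 2.14, 2.10 and 2.98 in subcutaneous TMP, 1.19, 0.68 and 1.29 in subcutaneous TMPC and 2.77, 3.28 and 1.79 in orthotopic TMPC replicates 1 to 3. The subcutaneous TMPC libraries held the lowest values of the 12. As the HoxC list was chosen after its values in these libraries were seen, nothing is read from this order. DNA replication genes stood at 4.72, 4.61 and 4.72 in TM and 4.75, 5.07 and 5.35 in orthotopic TMPC libraries, below all 6 libraries described above.

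Further lists gave these counts of tested genes above 0 in TMPC: cholesterol synthesis 3 of 21 (median -0.08), unfolded protein response 12 of 20 (median 0.06), PI3K and FOXO targets 10 of 20 (median -0.01), Wnt targets 9 of 17 (median 0.04), MHC class I 5 of 14 (median -0.26), collagens and matrix 5 of 24 (median -0.27) and mesenchymal transition 8 of 17 (median -0.03). Several of these rested on 1 library. Without TMPC replicate 1 the unfolded protein response had 4 of 20 above 0 (median -0.21), mesenchymal transition 2 of 17 (median -0.42), Wnt targets 6 of 17 (median -0.22) and cholesterol synthesis 9 of 21. Without TMP replicate 2 MHC class I had 9 of 14 (median 0.09), and without TMP replicate 3 cholesterol synthesis had 13 of 21. MAPK feedback genes, listed with their values in view, were above 0 for 14 of 18 (median 0.71), and for 0 of 18 (median -0.48) without TMPC replicate 1.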
